A study of Mus musculus with 4 samples.

Results

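The genes described are 10 genes of antigen presentation by major histocompatibility complex (MHC) class I, chosen by name and all found among the 17117 genes of the count table: B2m, H2-K1, H2-D1 and H2-T23 for the class I molecule, Tap1, Tap2 and Tapbp for peptide transport and loading, and Psmb8, Psmb9 and Psmb10 for the immunoproteasome. They were measured by single-cell RNA sequencing of GFP+ cells sorted from the lungs of mice in which Sftpc-CreER, a tamoxifen-inducible Cre recombinase driven by the surfactant protein C promoter, had marked alveolar type II (AT2) cells, the surfactant-making epithelial cells that also renew the alveolus. The design asked how the loss of Cdc42, a small GTPase that organises the actin skeleton, bears on AT2 cells before and after pneumonectomy (PNX), the surgical removal of part of the lung. There were 4 groups of 1 library each, so no difference below has a replicate check, no test was possible, and every interval covers counting error only. The null PNX group was Sftpc-CreER; Cdc42flox/-; Rosa26-mTmG on day 21 after PNX, and the null sham group had the same genotype and a sham treatment. The control PNX group was Sftpc-CreER; Cdc42flox/+; Rosa26-mTmG on day 21 after PNX, and the control sham group had that genotype and a sham treatment. All groups carried the Cre and the reporter, all were given 4 doses of tamoxifen, and all were labelled postnatal day 80. Control cells thus keep 1 intact Cdc42 allele, and the floxed allele can be deleted only in cells in which Sftpc-CreER was active. By genotype, all cells of the null mice, leukocytes and endothelium included, also carry the - allele. Null and control cells without active Cre therefore differ in Cdc42 dose too. The labels do not say at which step the mice had that age, how many mice a library pooled, or which H2 haplotype the mice had.

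A class I molecule is a heavy chain, here H2-K1, H2-D1 or the non-classical Qa-1 chain H2-T23, held by beta2-microglobulin, the product of B2m. Its peptide is cut in the cytosol by the proteasome, carried into the endoplasmic reticulum by the TAP transporter, a dimer of Tap1 and Tap2, and fitted with the help of tapasin, the product of Tapbp. Under interferon, cells exchange the catalytic proteasome subunits Psmb5, Psmb6 and Psmb7 for Psmb8, Psmb9 and Psmb10, which makes the immunoproteasome. In the lung the pathway lets CD8 T cells survey the epithelium, and AT2 cells are also known to carry MHC class II.

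Most of these genes are neighbours. In GENCODE M21 on GRCm38, 8 of the 10 lie on chromosome 17, among them Psmb9 (34181987 to 34187764), Tap1 (34187553 to 34197225), Psmb8 (34197721 to 34201454) and Tap2 (34203527 to 34216321) in 1 row, while B2m lies on chromosome 2 and Psmb10 on chromosome 8. The promoter table from RefSeq (GRCm38.p6) held 9 of the 10 members. The sequences below are shown because they carry the motifs by which class I genes are known to be switched on, and because 1 of them serves a pair of members. Each of the first 5 is the 200 bases before the RefSeq start on the gene's own strand, and the last is the stretch between the RefSeq starts of Psmb9 and Tap1 on the plus strand. Capitals mark an ISRE-like match (GAAANNGAAA) in B2m and H2-T23, a GAS-like match (TTCNNNGAA) in Psmb8, a kappaB-like match (GGGNNTTCCC) in H2-K1 and H2-D1, and CCAAT in the last.
B2m, chr2:122147487-122147686, plus strand: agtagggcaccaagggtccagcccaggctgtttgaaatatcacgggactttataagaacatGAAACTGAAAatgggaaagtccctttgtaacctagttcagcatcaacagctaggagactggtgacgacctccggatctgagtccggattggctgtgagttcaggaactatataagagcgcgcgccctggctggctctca
H2-T23, chr17:36032702-36032901, minus strand: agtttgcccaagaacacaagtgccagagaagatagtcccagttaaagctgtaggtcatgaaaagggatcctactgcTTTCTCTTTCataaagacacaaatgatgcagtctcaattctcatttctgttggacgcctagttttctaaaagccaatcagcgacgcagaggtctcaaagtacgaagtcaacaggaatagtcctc
H2-K1, chr17:34000348-34000547, minus strand: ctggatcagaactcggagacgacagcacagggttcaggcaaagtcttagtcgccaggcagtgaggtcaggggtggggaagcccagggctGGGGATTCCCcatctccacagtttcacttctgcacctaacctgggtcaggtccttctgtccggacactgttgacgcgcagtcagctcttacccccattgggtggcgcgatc
H2-D1, chr17:35262894-35263093, plus strand: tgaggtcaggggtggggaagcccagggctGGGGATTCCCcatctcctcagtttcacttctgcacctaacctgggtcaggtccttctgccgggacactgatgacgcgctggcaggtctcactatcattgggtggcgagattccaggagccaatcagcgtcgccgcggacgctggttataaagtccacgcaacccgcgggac
Psmb8, chr17:34197995-34198194, plus strand: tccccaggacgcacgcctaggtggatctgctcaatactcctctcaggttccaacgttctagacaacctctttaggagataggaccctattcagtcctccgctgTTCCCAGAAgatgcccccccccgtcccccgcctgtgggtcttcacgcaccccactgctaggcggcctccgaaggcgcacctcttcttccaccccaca
Psmb9-Tap1, chr17:34187331-34187555, plus strand: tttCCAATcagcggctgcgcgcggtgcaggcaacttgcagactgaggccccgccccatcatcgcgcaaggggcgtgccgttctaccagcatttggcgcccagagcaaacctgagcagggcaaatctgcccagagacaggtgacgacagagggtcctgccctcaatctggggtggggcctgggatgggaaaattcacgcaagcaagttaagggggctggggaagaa

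Motifs were searched on both strands in windows of 250 bases before and 50 after each start. Of 32851 RefSeq promoters, 3.44% held the ISRE-like motif, 8.30% the GAS-like one, 1.75% the kappaB-like one and 37.4% CCAAT. Of the 9 members, the ISRE-like letters were in 2, the GAS-like in 1, the kappaB-like in 2 and CCAAT in 7. The kappaB-like letters were chosen after these sequences had been read. The ISRE-like match began at position -139 in B2m and -124 in H2-T23, counted from the start, and on the opposite strand in H2-T23. No match of these motifs overlapped a match of another. Psmb9 and Tap1 are transcribed away from each other from RefSeq starts 226 bases apart, so their windows share 275 of 300 bases and the same CCAAT. The H2-K1 and H2-D1 windows were 90.4% identical over 227 aligned bases with 1 gap. GENCODE gives H2-D1, H2-T23, Psmb8 and Psmb9 an earlier first base than RefSeq, so parts of these stretches can be transcribed. A match is a description of the letters, not a bound site. Exact patterns miss elements whose letters depart from them, so a gene without a match can still hold such an element.

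The table held 10077 cells, with 2370 in null PNX, 3344 in null sham, 2252 in control PNX and 2111 in control sham, and between 9868802 (control sham) and 24897537 (null PNX) unique molecular identifiers (UMIs, counts of captured molecules) a library. Cells with under 500 genes or over 20% mitochondrial UMIs were dropped, which left 9827. Alveolar cells were those with at least 2% of UMIs from Sftpc or at least 1 Cldn4 UMI and with Ptprc, Pecam1 and Col1a2 at 0. There were 1802 of them in null PNX, 2564 in null sham, 1932 in control PNX and 1635 in control sham, 7933 in all. Cldn4 marks the transitional state between AT2 and flat type I cells, and Cldn4-positive alveolar cells numbered 974 in null PNX, 69 in null sham, 3 in control PNX and 0 in control sham, of which 406, 19, 1 and 0 entered through Cldn4 alone. Cells with 2 to 3% of UMIs from Sftpc, just inside the rule, numbered 83, 169, 17 and 2 in the same order, and cells with 1 to 2%, just outside, 23, 29, 5 and 43. The 9 AT2 markers together took 121880 CPM (UMIs of a gene scaled to a library total of 1e6) in null PNX, 147336 in null sham, 188338 in control PNX and 207429 in control sham, with all 9 present in every library, while 8 transitional markers took 12906, 3155, 745 and 580 CPM. The 4 airway markers took 5404, 4711, 996 and 5062 CPM in the same order, and 1 of them, Scgb3a2, took 192, 9.65, 8.88 and 26.4 CPM. The rule did not leave out airway cells. Median UMIs per alveolar cell were 10792.5 in null PNX, against 5202 in null sham, 4873 in control PNX and 4823 in control sham, and 54 barcodes occurred in more than 1 library.

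The control sham library stood apart at the MHC. H2-Eb1, the class II E beta chain gene on the same chromosome, had 23.4 CPM in null PNX alveolar cells, 17.2 in null sham and 31.5 in control PNX, with 422 in control sham, and 39.4, 40.4, 80.1 and 1651 CPM in cells with a UMI of Ptprc, the leukocyte gene CD45. Of 2416 genes compared between each library and all others at a 4-fold difference, in alveolar and in Ptprc-positive cells alike, null PNX had 17 that were higher, among them Clu, Krt19 and Cldn4, and 3 that were lower, and control sham had 2 that were higher, H2-Eb1 and Gm10116, and 2 that were lower. Null PNX thus had more such genes than control sham, and every difference of null PNX below rests on that 1 library. Among Ptprc-positive cells with a UMI of the T cell gene Cd3e (53, 74, 27 and 62 cells), H2-D1 had 5676 CPM in null PNX, 5230 in null sham and 5329 in control PNX, but 2841 in control sham, and H2-K1 had 2088, 1938 and 1769 CPM against 1193. B2m was 4023, 3392, 4157 and 4016 CPM in the same cells. In cells gated on the macrophage and monocyte gene Csf1r, H2-D1 was 5092, 8574, 5051 and 4899 CPM, with control sham close to null PNX and control PNX. H2-K1 was 1378, 2694, 1224 and 1549 CPM in those cells, not lowest in control sham. The lower H2-D1 and H2-K1 of control sham were thus shared by the Cd3e-positive cells, while H2-K1 was not lowest in the Csf1r gate. The Cd3e-positive cells of control sham also differed in the class II gene Cd74, at 656, 206, 113 and 4218 CPM. The part of these differences in the comparisons below that use control sham was not tested. Comparisons of null PNX with null sham and with control PNX do not use that library.

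Transcripts of the class I molecule itself were abundant in alveolar cells of every library. B2m, H2-K1 and H2-D1 together made 87.3 to 90.5% of the summed UMIs of the 10 genes, which are 3′ tag counts and not scaled by gene length. The sum was 5490.0 CPM in null PNX, 3105 in null sham, 3500.2 in control PNX and 2990.2 in control sham. H2-D1 had 2873 CPM in null PNX, 1359.5 in null sham, 1329.9 in control PNX and 891 in control sham. It was more than 2 times as high in null PNX as in any other library, and lowest in control sham, while null sham and control PNX had overlapping intervals. H2-K1 had 1103 CPM in null PNX, 748 in null sham, 915 in control PNX and 631 in control sham, the same order at both ends with smaller steps. B2m had a different order, with 885 CPM in null PNX, 673 in null sham, 925 in control PNX and 1087 in control sham, so the light chain was highest in the library in which both heavy chains were lowest. H2-T23, whose Qa-1 product is read by NKG2A receptors of natural killer cells, had 75.8 CPM in null PNX, 41.0 in null sham, 46.8 in control PNX and 70.9 in control sham. Its 95% Poisson intervals overlapped between null PNX (72.1 to 79.7) and control sham (65.2 to 76.9) and between null sham (37.7 to 44.4) and control PNX (42.7 to 51.3).

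**Figure D1:**
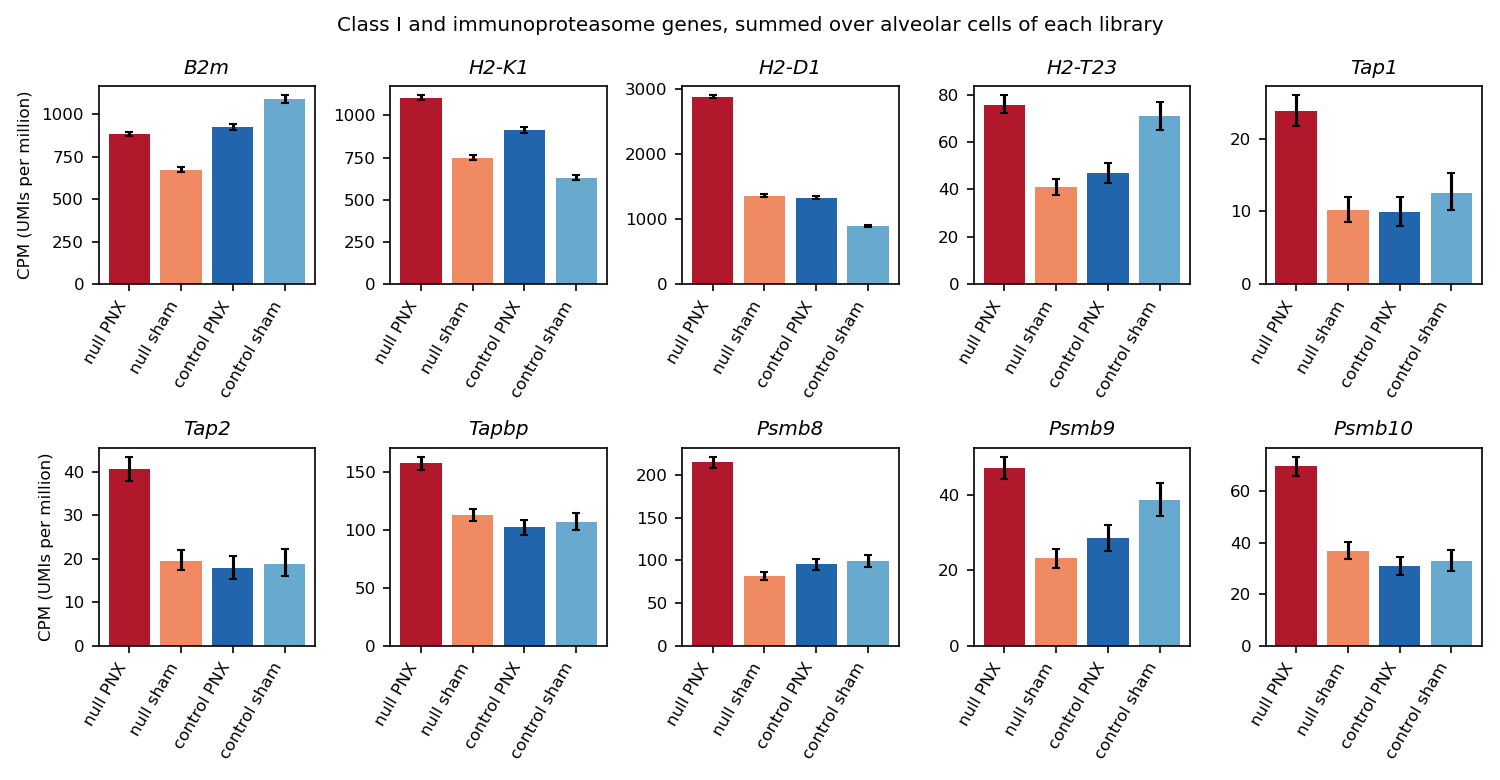
Level of each of the 10 genes, in CPM of the UMIs summed over alveolar cells, in null PNX, null sham, control PNX and control sham from left to right; bars start at 0 and error bars are exact 95% Poisson intervals, 1 library a bar. Null PNX has the tallest bar for 9 genes, and B2m is tallest in control sham at 1087 CPM.

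Fold values below are ratios of CPM divided by the median ratio of the 7051 genes that averaged 10 CPM or more across libraries, with exact 95% binomial intervals, and a gene is called higher or lower at 1.5-fold or more. The median ratio itself was 1.17 for null PNX over null sham, 1.19 for null PNX over control PNX, 1.13 for null sham over control sham and 1.10 for control PNX over control sham. Against null sham, null PNX had H2-D1 at 1.81-fold (1.78 to 1.84) and H2-T23 at 1.58-fold (1.44 to 1.74), whereas H2-K1 at 1.26-fold (1.23 to 1.29) and B2m at 1.12-fold (1.10 to 1.15) were not called. Against control PNX, null PNX had H2-D1 at 1.82-fold (1.79 to 1.86), H2-T23 at 1.37-fold (1.23 to 1.52), H2-K1 at 1.02-fold (0.993 to 1.04) and B2m at 0.807-fold (0.787 to 0.827). The heavy chain H2-D1 thus stood higher in null PNX in both comparisons without a matching difference in its light chain. The number of B2m UMIs per H2-D1 UMI was 0.308 in null PNX, 0.495 in null sham, 0.695 in control PNX and 1.22 in control sham, and the number of H2-D1 UMIs per H2-K1 UMI was 2.60, 1.82, 1.45 and 1.41. In Ptprc-positive cells the H2-D1 to H2-K1 ratio was 3.03 in null PNX, 2.97 in null sham, 3.45 in control PNX and 3.00 in control sham, without the high value of null PNX. The B2m to H2-D1 ratio of those cells was 0.635, 0.681, 0.761 and 1.28, so its order of libraries was that of the alveolar cells. H2-K1, H2-D1 and the H2-Q genes have near-identical stretches, so the authors' counting could have divided or dropped reads between them, and these ratios depend on that.

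The higher H2-D1 of null PNX ran through the alveolar cells and was not carried by a few. After each cell was thinned to 2000 UMIs, which left out 0 alveolar cells of null PNX, 88 of null sham, 68 of control PNX and 82 of control sham as too shallow, the median cell had 5 H2-D1 UMIs in null PNX, 2 in null sham, 2 in control PNX and 1 in control sham. Thinned cells with no H2-D1 UMI made up 2.33% in null PNX, 12.4% in null sham, 12.9% in control PNX and 24.3% in control sham, and cells with 10 or more made up 13.1%, 0.929%, 0.751% and 0.0644%. Before thinning, 99.8%, 97.4%, 96.8% and 92.4% of cells had an H2-D1 UMI. No cell type here lacks class I, so no background share can be set beside these. The cell with the most H2-D1 UMIs held at most 0.734% of the library's total.

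**Figure D2:**
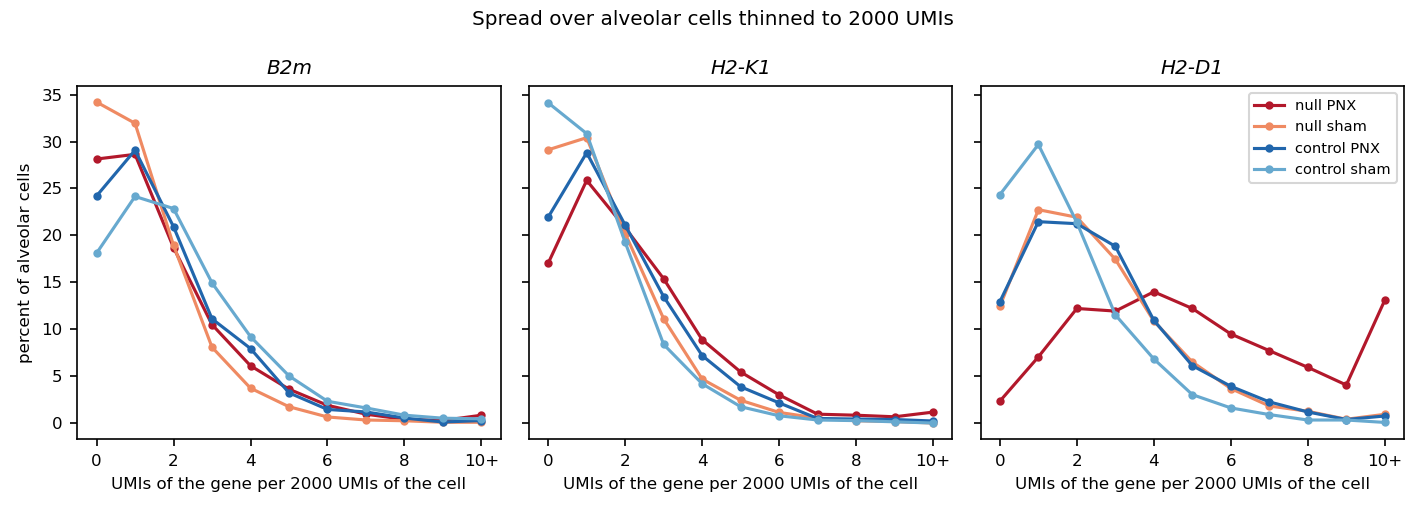
Share of alveolar cells (percent, y axis) by the number of UMIs of B2m, H2-K1 and H2-D1 (x axis) after thinning each cell to 2000 UMIs; the last point collects cells with 10 or more. The H2-D1 curve of null PNX lies to the right of the other 3, with 13.1% of cells at 10 or more UMIs, and that of control sham to the left.

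The transporter subunits had low levels and stood out in null PNX. Tap1 had 23.8 CPM in null PNX, 10.2 in null sham, 9.89 in control PNX and 12.6 in control sham, and Tap2 had 40.6, 19.6, 17.8 and 18.9 CPM. For both, the intervals of the 3 other libraries overlapped each other and none reached null PNX. Null PNX had Tap1 at 1.99-fold (1.65 to 2.41) and Tap2 at 1.77-fold (1.55 to 2.04) of null sham, and at 2.03-fold (1.63 to 2.54) and 1.93-fold (1.63 to 2.28) of control PNX. These rest on 492 Tap1 and 840 Tap2 UMIs in null PNX and on 147 and 282 in null sham, and 1 null PNX cell held 2.85% of the Tap1 UMIs. Tapbp had 157 CPM in null PNX, 113 in null sham, 102 in control PNX and 107 in control sham, and was not called in any comparison of libraries, at 1.20-fold (1.13 to 1.27) of null sham and 1.30-fold (1.21 to 1.40) of control PNX. Of 10 other genes for peptide loading and trimming in the endoplasmic reticulum, 8 were tested. Against null sham, null PNX had 3 called higher, beside 16% of all genes tested, and 0 lower, beside 20.3%. The 3 were the chaperones Calr (calreticulin, 1.60-fold) and Hspa5 (BiP, 1.504-fold) and the disulphide isomerase Pdia3 (1.62-fold). Of these, Calr and Pdia3 sit in the loading complex. Against control PNX, 1 was higher, beside 20.8% of all genes, and 1 lower, beside 21.7%. They were the tapasin relative Tapbpl at 1.97-fold and the translocon subunit Sec61b at 0.641-fold.

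The immunoproteasome subunits were also highest in null PNX. Psmb8 had 215 CPM in null PNX, 81.2 in null sham, 95.4 in control PNX and 99.5 in control sham. Psmb9 had 47.0, 23.1, 28.5 and 38.6 CPM and Psmb10 had 69.7, 36.9, 30.9 and 33.0 CPM in the same order. No other library reached null PNX, and for Psmb8 and Psmb9 null sham was the lowest. The intervals of control PNX and control sham overlapped for Psmb8 and Psmb10, as did those of null sham and control PNX for Psmb9. Against null sham, null PNX had Psmb8 at 2.26-fold (2.12 to 2.42), Psmb9 at 1.74-fold (1.53 to 1.97) and Psmb10 at 1.61-fold (1.46 to 1.79). Against control PNX it had Psmb8 at 1.90-fold (1.77 to 2.04), Psmb10 at 1.90-fold (1.68 to 2.16) and Psmb9 at 1.39-fold (1.22 to 1.59), the last not called.

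The constitutive subunits that they replace were higher by about as much. Psmb5 had 324 CPM in null PNX, 138 in null sham, 124 in control PNX and 107 in control sham. Psmb6 had 347, 183, 180 and 160 CPM, and Psmb7 had 193, 89.3, 80.2 and 76.3 CPM. Null PNX had Psmb5 at 2.00-fold, Psmb6 at 1.62-fold and Psmb7 at 1.85-fold of null sham. Of the 11 other subunits of the proteasome core 9 were called higher, beside 16% of all genes, and 0 lower, beside 20.3%. Their median was 1.81-fold, with Psma1 (2.295-fold), Psma4 (2.08-fold) and Psma5 (2.06-fold) at the top. The counts of UMIs per constitutive UMI, which compare libraries and not protein amounts, therefore differed little between null PNX and null sham: 0.664 (0.639 to 0.690) against 0.587 (0.545 to 0.631) for Psmb8 to Psmb5, 0.135 (0.126 to 0.145) against 0.126 (0.112 to 0.141) for Psmb9 to Psmb6, and 0.361 (0.340 to 0.384) against 0.413 (0.373 to 0.458) for Psmb10 to Psmb7. The intervals overlapped for Psmb9 to Psmb6 and for Psmb10 to Psmb7, and not for Psmb8 to Psmb5. Control PNX had ratios of 0.770 for Psmb8 to Psmb5, 0.159 for Psmb9 to Psmb6 and 0.385 for Psmb10 to Psmb7, and control sham had the highest of the 4 libraries, 0.926, 0.241 and 0.432. Of 9 proteasome activators and assembly factors, null PNX had 3 called higher than null sham, beside 16%, and 0 lower, beside 20.3%. The 3 were Psme2 (PA28 beta, 1.61-fold), Psmg1 (1.72-fold) and Pomp (1.51-fold). Psme1, the partner of Psme2 in the PA28 cap, was at 1.12-fold.

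**Figure D3:**
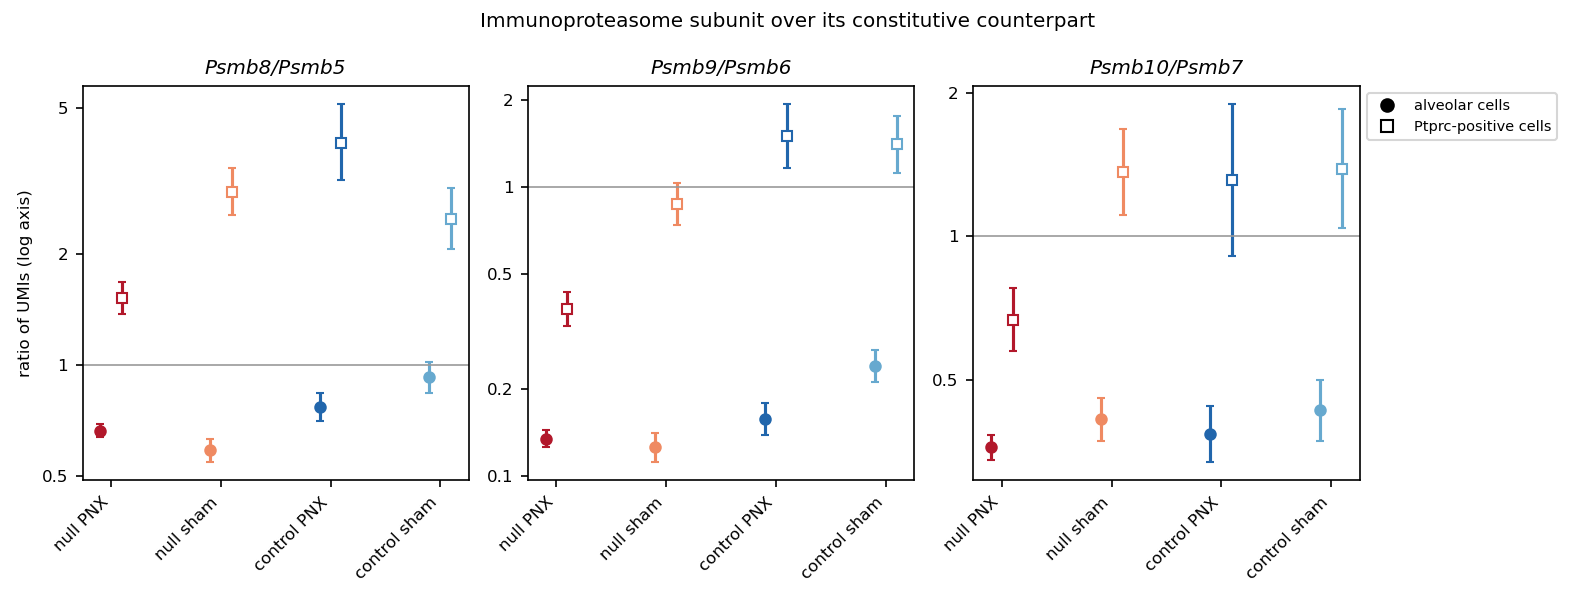
UMIs of each immunoproteasome subunit per UMI of the constitutive subunit it replaces (y axis, log scale) in alveolar cells (filled circles) and Ptprc-positive cells (open squares) of null PNX, null sham, control PNX and control sham, with exact 95% intervals. Alveolar ratios lie under 1 in all libraries, and null PNX has the lowest ratio of the Ptprc-positive sets in all panels, for example 1.52 for Psmb8 to Psmb5.

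Over the whole group, null PNX had 7 of the 10 genes called higher than null sham, where 16% of all genes tested were, and 0 called lower, where 20.3% were. Those 7 were H2-D1, H2-T23, Tap1, Tap2, Psmb8, Psmb9 and Psmb10, and the median of the 10 was 1.68-fold beside 1 for all genes. The calls of Psmb9 and Psmb10 were the least firm, with Psmb9 at 1.499-fold after thinning and Psmb10 at 1.421-fold without Cldn4-positive cells. Against control PNX, null PNX had 5 of the 10 called higher, beside 20.8% of all genes, and 0 lower, beside 21.7%: H2-D1, Tap1, Tap2, Psmb8 and Psmb10, with a median of 1.61-fold. Both comparisons share the null PNX library. Null sham had 0 called higher than control sham, beside 8% of all genes, and 3 lower, beside 6.71%: H2-T23 at 0.512-fold (0.456 to 0.576), Psmb9 at 0.530-fold (0.453 to 0.621) and B2m at 0.549-fold (0.533 to 0.565), with a median of 0.821-fold. Control PNX had 0 called higher than control sham, beside 3.56%, and 1 lower, beside 3.09%: H2-T23 at 0.601-fold (0.531 to 0.681), with a median of 0.854-fold. Its Psmb9 lay just inside the bound at 0.670-fold (0.568 to 0.789), B2m at 0.774-fold, and H2-D1 and H2-K1 on the other side at 1.36-fold and 1.32-fold. The comparisons of null sham and of control PNX with control sham share that library. Its B2m, H2-T23, Psmb9, Tap1 and Psmb8 levels were above and its H2-D1 and H2-K1 levels below those of null sham and control PNX.

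**Figure D4:**
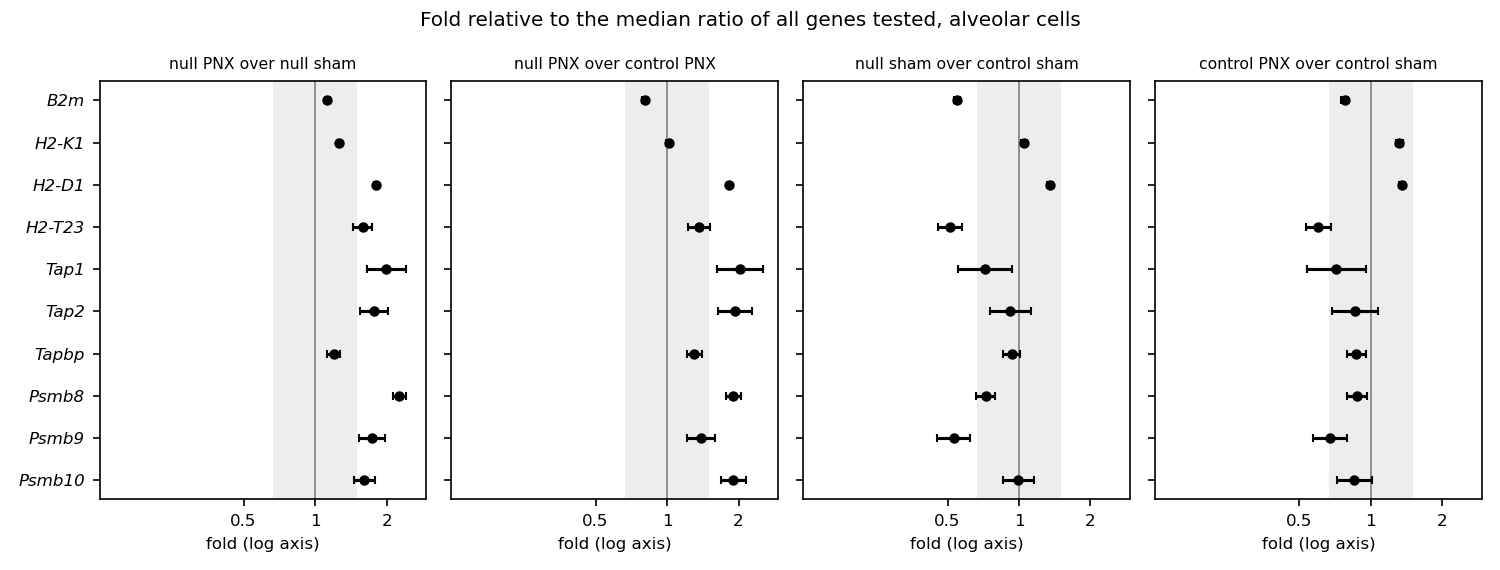
Fold of each gene in 4 comparisons of alveolar cells, as the ratio of CPM divided by the median ratio of all genes tested (x axis, log scale), with exact 95% binomial intervals; the grey band is the range that is not called. In the first panel all points lie right of 1, from 1.12 for B2m to 2.26 for Psmb8. In the last 2 panels all genes but H2-K1 and H2-D1 lie left of 1.

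The other class I genes of the region had lower counts and were mostly higher in null PNX. Of 14 heavy chain and Qa-type genes, 4 were tested. Null PNX had 3 called higher than null sham, beside 16% of all genes, and 0 lower, beside 20.3%. The 3 were H2-Q4 at 2.43-fold, H2-Q6 at 1.99-fold and H2-Q2 at 1.56-fold, with H2-Q7 at 1.27-fold not called. H2-Q4 had 85.9 CPM in null PNX, 30.2 in null sham, 34.3 in control PNX and 31.9 in control sham. Not every partner of beta2-microglobulin shared this: Fcgrt, the neonatal Fc receptor, had 14.7 CPM in null PNX, 22.1 in null sham, 19.98 in control PNX and 23.7 in control sham, and was called lower at 0.571-fold of null sham. Of 14 neighbours in the MHC region with no role in presentation, 3 were called higher in null PNX than in null sham, beside 16%. They were Flot1 at 1.67-fold, Wdr46 at 1.59-fold and Csnk2b at 1.503-fold. Lower was 1, Rps18 at 0.574-fold, beside 20.3%, and the median of the 14 was 1.04-fold. MHC class II genes share part of their control with class I. Of the 8 tested, 6 were called higher in null PNX than in null sham, beside 16%, with Cd74 at 1.82-fold and H2-Ab1 at 1.89-fold. Against control PNX 1 was higher, the protease gene Ctss, beside 20.8%, and 1 lower, H2-Eb1, beside 21.7%. The median of the 8 was 1.04-fold against control PNX. Null sham itself had 5 of the 8 called lower than control sham, beside 6.71%, and 0 higher, beside 8%, with a median of 0.645-fold.

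Genes upstream of class I did not move as a block. Nlrc5, the main class I transactivator, had 1.11 CPM in null PNX, 0.764 in null sham, 0.908 in control PNX and 0.247 in control sham, too few UMIs for a comparison, and Irf1 had 23.9, 18.5, 20.1 and 17.7 CPM. Both were named after their values were seen. Of 21 regulators, 14 were tested. Null PNX had 4 called higher than null sham, beside 16% of all genes, among them Nfkbia (1.55-fold), Socs3 (1.53-fold) and Rfxap (1.53-fold). It had 3 lower, beside 20.3%: Rfx5 (0.515-fold), Stat3 (0.567-fold) and Nfkb1 (0.627-fold). Of 9 interferon receptor chains and kinases, 1 was called higher in null PNX than in null sham, beside 16% of all genes. It was Ifngr2, the second chain of the interferon gamma receptor. Its level was 78.3 CPM in null PNX, 43.1 in null sham, 18.4 in control PNX and 18.5 in control sham. Null PNX had it at 1.55-fold of null sham and 3.60-fold of control PNX, and null sham at 2.06-fold of control sham, so it was higher in the null library under both treatments.

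Interferon-stimulated genes gave a mixed picture. Of 30 listed, 13 were tested. Null PNX had 3 called higher than null sham, beside 16% of all genes: Isg15 (4.36-fold), Rtp4 (1.60-fold) and Samhd1 (1.52-fold). It had 2 lower, beside 20.3%: Ifi27l2a (0.438-fold) and Trim25 (0.453-fold). Against control sham, control PNX had 6 called lower, beside 3.09%, and 0 higher, beside 3.56%. Null sham had 5 lower, beside 6.71%, and 1 higher, beside 8%. Isg15 was at 0.390-fold in control PNX and 0.374-fold in null sham, and Rtp4 at 0.400-fold and 0.477-fold. Isg15 had 32.9 CPM in null PNX, 6.46 in null sham, 6.56 in control PNX and 15.3 in control sham. Like Isg15, H2-T23, Psmb9 and B2m were higher in control sham than in null sham and control PNX, while H2-K1 and H2-D1 were lower. Tap1 and Psmb8 were also higher there, though not called. They were at 0.718-fold and 0.724-fold of control sham in null sham, and at 0.714-fold and 0.872-fold in control PNX. Tap2, Tapbp and Psmb10 were at 0.919-fold, 0.932-fold and 0.993-fold in null sham, and at 0.855-fold, 0.867-fold and 0.852-fold in control PNX.

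Within null PNX, the class I molecule differed little between Cldn4-positive and Cldn4-zero alveolar cells, and the call of Tap1 depended on the setting. The 974 Cldn4-positive cells had a median of 12072.5 UMIs and the 828 cells without Cldn4 had 9889, and Cldn4 is detected more readily in deeper cells. H2-D1 had 3065 CPM in Cldn4-positive cells and 2594 in Cldn4-zero cells, and B2m had 949 and 791 CPM. Of the 10 genes 0 were called higher in Cldn4-positive cells, beside 7.2% of all genes tested, and 0 lower, beside 6.93%. Tap1 came nearest at 1.48-fold (1.22 to 1.81), with 28.1 CPM in Cldn4-positive cells and 17.4 in Cldn4-zero cells, and H2-T23 at 0.850-fold (0.768 to 0.941) and Psmb9 at 0.896-fold (0.787 to 1.02) were at the low end. The count of 0 higher held at this setting and at none of the others run: each of the 4 alternatives called Tap1 higher, between 1.57-fold with a mean over cells and 2.269-fold after thinning, and thinning also called Tap2 at 1.745-fold. By contrast 8 of 18 interferon-stimulated genes tested were called higher in Cldn4-positive cells and 0 lower, led by Gbp2 (4.58-fold), Isg15 (3.46-fold) and Ifitm1 (2.31-fold), and Ifngr1 (1.75-fold) and Ifngr2 (1.60-fold) were called higher too. Part of the difference from null sham was present without Cldn4. The Cldn4-zero cells of null PNX had 4 of the 10 genes called higher than the Cldn4-zero cells of null sham, beside 13% of all genes, and 0 lower, beside 16.5%: Psmb8 at 2.07-fold (1.92 to 2.24), Psmb9 at 1.82-fold (1.57 to 2.11), H2-D1 at 1.72-fold (1.68 to 1.75) and H2-T23 at 1.71-fold (1.53 to 1.92). The Cldn4-positive cells of null PNX had 6 called higher, beside 19.5%, and 0 lower, beside 23%, with Tap1 and Tap2 at 2.17-fold and 1.91-fold, against 1.49-fold and 1.499-fold, under the bound, in Cldn4-zero cells. With the tested genes chosen by their mean over all 4 libraries, the same Cldn4-zero cells had Tap1 at 1.51-fold and Tap2 at 1.523-fold, over the bound, and 6 genes called.

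Across single alveolar cells the 10 genes were only weakly tied. On thinned cells, the mean over the 4 libraries of the within-library Pearson correlation was 0.254 for H2-K1 with H2-D1, 0.229 for B2m with H2-D1 and 0.228 for B2m with H2-K1, and under 0.08 for every other pair of members. The genes with a level most like the summed members without B2m were Cd74 (mean r 0.141), H2-Ab1 (0.136), Clu (0.131), H2-Aa (0.125), Ly6e (0.120), Cd63 (0.113), Ubb (0.101), Fdps (0.0993), Tmem176b (0.0982) and Ager (0.0975), out of 2220 genes with a median of 0.00437. Cells of 1 library share their preparation and depth, counts are sparse, and correlations of this size are given as a description only.

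Cells with a Ptprc UMI carried more class I than alveolar cells. They numbered 284 in null PNX, 311 in null sham, 119 in control PNX and 228 in control sham, and of them 63, 67, 19 and 42 also had 2% or more of UMIs from Sftpc, so the set holds mixed droplets. B2m had 2597 CPM in null PNX, 3012 in null sham, 3159 in control PNX and 3919 in control sham. H2-D1 had 4091, 4426, 4152 and 3054 CPM and Psmb8 had 465, 471, 585 and 402 CPM in the same order. Null PNX had 0 of the 10 called higher than null sham, beside 14.3% of all genes tested in these cells, and 0 lower, beside 17.5%, with values from 0.669-fold for Psmb9 to 1.17-fold for Tap2. The higher class I of null PNX alveolar cells was thus not seen in the Ptprc-positive cells of the same library taken as a whole, though the cell gates within them differed. Against control PNX, 0 were called higher, beside 21.7%, and 1 lower, beside 22.7%, Psmb9 at 0.443-fold (0.364 to 0.542). Null sham had 0 called higher than control sham, beside 13%, and 0 lower, beside 11.1%, and control PNX had 0 higher, beside 14.3%, and 0 lower, beside 15.9%. The 8 transitional markers took 8821 CPM in the Ptprc-positive cells of null PNX, 2226 in null sham, 846 in control PNX and 802 in control sham, and 5 neutrophil markers 599.8, 7967, 11617 and 5551 CPM, so alveolar RNA and the mix of leukocytes moved with the null PNX set, and their part was not tested. Psmb8 to Psmb5 was 1.52 in null PNX, 2.96 in null sham, 4.02 in control PNX and 2.50 in control sham in these cells, well above the alveolar ratios. Unlike the members, all 3 constitutive catalytic subunits were called higher in null PNX than in null sham in these cells, with a median of 1.64-fold. Of the 11 other core subunits 3 were called higher, beside 14.3%, and 0 lower, with a median of 1.42-fold.

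Narrower gates bear on how far the null PNX differences reached. There were 9, each of cells with a UMI of a gene of another cell type (for leukocytes, of Ptprc too) and under 2% of UMIs from Sftpc. In the Cd3e-positive cells Psmb5 had 311 CPM in null PNX, 123 in null sham, 135 in control PNX and 176 in control sham. It had 316, 184, 127 and 148 CPM in the same order in Pecam1-positive (endothelial) cells, and 250, 215, 211 and 185 CPM in Csf1r-positive cells. Null PNX had the highest Psmb5 in 7 of 9 gates, in 2 of them (Cd3e and the neutrophil gene Retnlg) with no overlap of intervals, and the lowest in 1, cells gated on the natural killer gene Ncr1. The Retnlg gate held only 5 null PNX cells, with a median of 17449 UMIs. Null sham, control PNX and control sham had 20, 8 and 27 cells there, with medians of 1674.5, 1613 and 1477 UMIs, so these sets are not alike. The Ncr1 gate held 6, 14, 3 and 12 cells. In the Csf1r gate Psmb5 of null PNX was at 1.16-fold of null sham (0.828 to 1.63). The gates also differed for the members. In cells gated on Flt3, a gene of dendritic cells (17, 16, 14 and 8 cells), H2-D1 had 5602 CPM in null PNX, 4201 in null sham, 4751 in control PNX and 3478 in control sham, and Psmb8 had 1512, 865, 1029 and 805 CPM, so null PNX was highest for both. In the Pecam1-positive cells (27, 74, 34 and 50 cells) H2-D1 had 3961 CPM in null PNX, 8918 in null sham, 6625 in control PNX and 5716 in control sham, so null PNX was lowest there. Sftpc took 0.660% of UMIs in those null PNX cells and 0.532% in those of null sham. That share does not measure RNA of transitional cells, as 406 null PNX alveolar cells entered through Cldn4 alone. Median UMIs in the Pecam1 gate were 4435 in null PNX, 2352 in null sham, 1989.5 in control PNX and 1992 in control sham. B2m had 1652, 5320, 4991 and 5365 CPM there in the same order. These sets are thus not alike either, and the part of depth and cell mix was not tested. Over the 9 gates null PNX had the highest H2-D1 in 4, of which 2 had no overlap of intervals. It had the lowest H2-D1 in 2, of which 1 had no overlap. Its Psmb8 was the highest in 6, of which 1 had no overlap, and the lowest in 1. Among the 6 was the fibroblast gate Col1a2, with 202 CPM in null PNX and 63.0 in null sham. That gate held 22 null PNX cells with a median of 10818 UMIs and 61 null sham cells with 4651. Ciliated cells, marked by Foxj1, had the lowest class I, with H2-D1 at 1085 CPM in null PNX, 611 in null sham, 514 in control PNX and 565 in control sham. Ifng, the interferon gamma gene, had 1.79 CPM in the Ptprc-positive cells of null PNX (4 UMIs), 13.0 in null sham (20 UMIs), 24.5 in control PNX (15 UMIs) and 11.6 in control sham (11 UMIs), the lowest level in null PNX. The cells that make it also gave less in that set: 5 natural killer markers took 161 CPM in the Ptprc-positive cells of null PNX, 682 in null sham, 227 in control PNX and 440 in control sham, and T cell markers 357, 498, 497 and 671 CPM, and their part in the Ifng level was not tested. Within the Cd3e gate, Ifng had 0 CPM in null PNX (0 UMIs), 51.5 in null sham (13), 158 in control PNX (14) and 12.9 in control sham (3). Within the Ncr1 gate it had 38.4, 142, 132 and 204 CPM in the same order, from 1, 7, 1 and 8 UMIs. In alveolar cells T cell markers took 11.9 CPM in null PNX, 9.86 in null sham, 3.94 in control PNX and 8.52 in control sham, with 3 of the 6 listed markers in the table, and the natural killer markers 3.72, 5.48, 2.02 and 5.43 CPM, with Prf1 at 0 in all libraries.

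**Figure D5:**
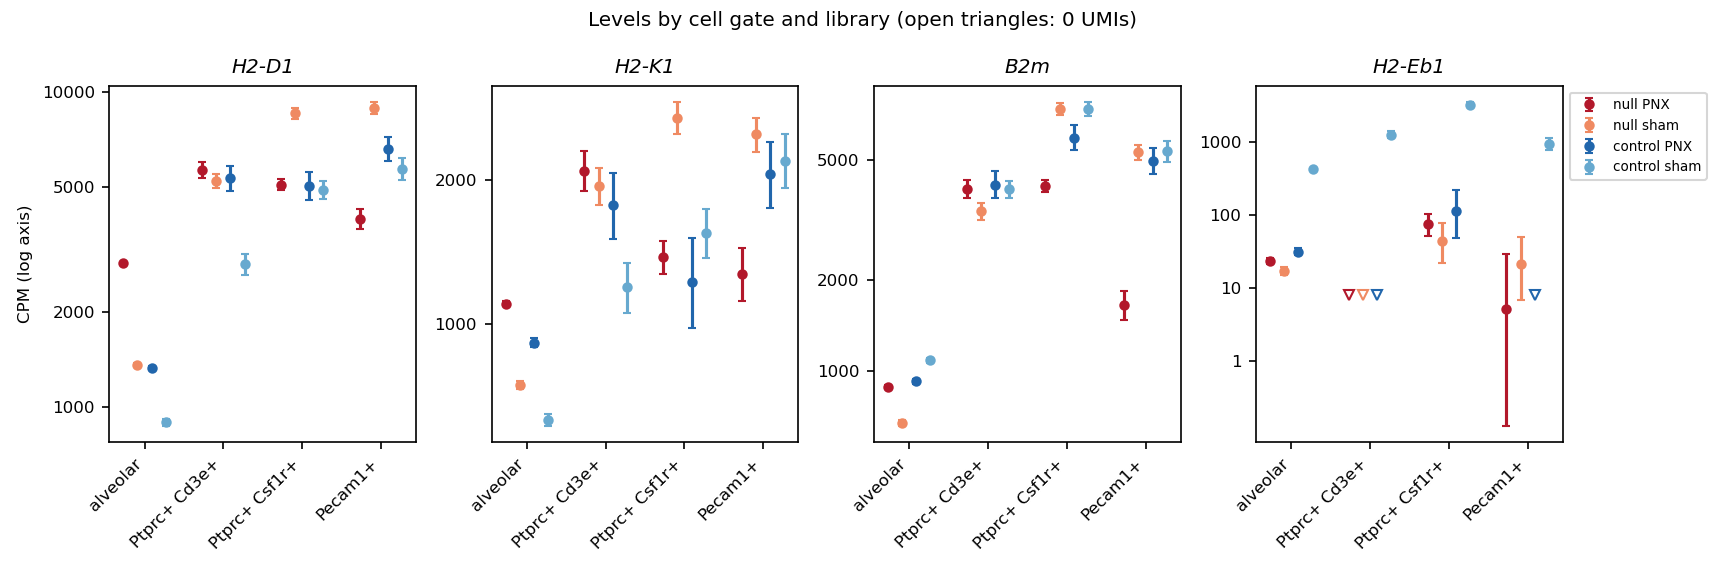
Level of H2-D1, H2-K1, B2m and H2-Eb1 (CPM, y axis, log scale) in alveolar cells and in cells gated on Cd3e, Csf1r or Pecam1, for null PNX, null sham, control PNX and control sham from left to right within each gate, with exact 95% Poisson intervals and open triangles for 0 UMIs. Null PNX leads for H2-D1 in alveolar cells and is lowest in the Pecam1 gate, and H2-Eb1 stands above the other libraries in control sham in all gates shown.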

How the data were processed

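The deposited table holds raw UMI counts per gene and cell, not normalized, for GFP+ lung cells of 4 libraries made with the 10x 3′ protocol, per the labels' protocols. The submitters' processing notes name Cell Ranger 2.1.0, Seurat 2.3.4 and mm10, with no word on which did what. The annotation release, chemistry version and doublet handling are not given in the sources. The ending of a cell barcode gave its library, per the labels.

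Cells under 500 genes or over 20% mitochondrial UMIs were dropped. Beyond the requirement that Ptprc, Pecam1 and Col1a2 be at 0 in alveolar cells, doublets were not removed. UMIs were summed per library and cell set and scaled to CPM of that sum, with exact Poisson 95% intervals. A sum of 0 allows up to 3 UMIs. That is 0.145 CPM in null PNX, 0.208 in null sham, 0.303 in control PNX and 0.370 in control sham alveolar cells, for counting error only. Ratios of CPM were divided by the median ratio of genes averaging 10 CPM or more and have exact binomial intervals. A gene was called at 1.5-fold, a bound of size and not a test. Thinning drew 2000 UMIs a cell without replacement (seed 1), and correlations used log2(UMIs + 1). The fold step was tested on simulated Poisson counts with known folds, which hold no spread between cells or libraries. Thinning was checked on its totals. The cell rules, gates, correlations and motif search were not simulated. Python 3.11.15, numpy 2.4.6, scipy 1.17.1, pandas 2.3.3 and matplotlib 3.10.9 were used, and edgeR 4.0.16 in R 4.3.3 for TMM factors, an alternative scaling only.

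Named were all 10 members, Psmb5 to Psmb7, at most the 3 largest called genes of each list and direction, the 10 genes most like the members, and Ifng. The members and lists were chosen with earlier results of these data known. A listed regulator is not reported here. Alternatives tried were other cell rules and filters, scalings, thinning, a mean over cells, other gene filters and bounds, and leaving out each gene's top cell.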

Additional observations from a re-analysis of the deposited data

Results flagged for a closer look

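For 6 of the 10 genes the null and the control genotype had PNX over sham folds on opposite sides of 1 in alveolar cells, with both counting intervals clear of 1, which is what marked them for a closer look. With 1 library a group the difference itself was not tested, and the control side rests on the control sham library, which stood apart at H2-Eb1. The share of all genes with this mark was not computed, so the count of 6 is not read as particular to the members. The null PNX over null sham fold was 1.453 times the control PNX over control sham fold for B2m (1.12 and 0.774), 2.635 times for H2-T23 (1.58 and 0.601), 2.787 times for Tap1 (1.99 and 0.714), 1.379 times for Tapbp (1.20 and 0.867), 2.598 times for Psmb8 (2.26 and 0.872) and 2.595 times for Psmb9 (1.74 and 0.670). H2-K1 and H2-D1 lay above 1 in both genotypes, at 1.26 and 1.32 for H2-K1 and at 1.81 and 1.36 for H2-D1. Tap2 (1.77 and 0.855) and Psmb10 (1.61 and 0.852) also lay on opposite sides of 1, but their control intervals included it.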

How the results depend on the processing

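No paired analysis was possible because each group is 1 library, so no replicate was left out either. No gene's called fold changed direction under any alternative run. Of 600 recomputed folds of members, 512 differed from the reported one by no more than its counting interval, and 88 moved further. All members stayed on the same side of 1 for null PNX over null sham and control PNX over control sham under each setting, while 7 of 140 values were on the other side for null sham over control sham and 3 of 140 for null PNX over control PNX. Depth limits Tap1, Tap2 and Psmb9 most.

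With genes of at least 50 CPM alone, the count called higher was 3 (reported 7) for null PNX over null sham and 2 (reported 5) for null PNX over control PNX, since fewer members are then tested. For null PNX over null sham, 6 were higher after thinning, without Psmb9, and 6 without Cldn4-positive cells, without Psmb10. At a 2-fold bound each of these was 1, and the counts called lower were 0 for null sham over control sham (reported 3) and 0 for control PNX over control sham (reported 1). Scaling by total UMIs alone gave 8 higher for null PNX over control PNX, 1 higher for null sham over control sham (reported 0) and 1 higher for Cldn4-positive over Cldn4-zero cells (reported 0). For that split, 1 was higher with at least 2 Cldn4 UMIs, 2 after thinning and 1 with a mean over cells. For control PNX over control sham, 2 were lower with more immune genes at 0, with at least 1000 genes and at most 10% mitochondrial UMIs, with a mean over cells, after thinning, and without each gene's top cell. The cause was not tested for the settings other than the gene filter and the bound.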
